A study of Mus musculus with 12 samples.

Results

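The genes described are 37 genes of glucose metabolism: 15 enzymes of glycolysis, 5 genes of the lactate and pyruvate step, 3 transporters of glucose or lactate, 10 genes of glycogen turnover and 4 enzymes of the pentose phosphate pathway. They were taken by symbol from a table of 19702 genes quantified by RNA-seq in whole corneas of mice. All 37 were found, and all 37 were among the 16124 genes that passed a filter on low counts. The study had 12 libraries in 4 groups of 3, and each library held a pool of 6 corneas from 3 mice. Control corneas had neither injury nor treatment. In Vehicle the corneas were injured by benzalkonium chloride (BAK), a detergent used as a preservative in eye drops, given as 5 µl of a 0.2% solution to each eye daily for 14 days, and had no treatment. UCS and UCPRP corneas had the same injury and received 5 µl of a 20% preparation of the agent of that name, 3 times daily for 10 days. The series title calls the agents cord blood-derived biologics, and the labels do not expand the abbreviations. The sources used here do not give strain, sex, age or time of harvest, nor whether treatment followed BAK or overlapped with it.

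Glycolysis splits glucose into pyruvate, which is either reduced to lactate by lactate dehydrogenase or sent to the mitochondria by pyruvate dehydrogenase. Glycogen is the cell's store of glucose, and the corneal epithelium keeps a reserve of it that is drawn on after wounding. The pentose phosphate pathway branches off from the first intermediate of glycolysis and yields NADPH, which keeps glutathione reduced; its enzyme transketolase is so abundant in the mouse corneal epithelium that it has been counted among the corneal crystallins. The cornea has no vessels, takes its glucose mostly from the aqueous humour and exports lactate through monocarboxylate transporters.

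The libraries held between 18.55 M and 20.44 M estimated counts, so 1 count per 1 M counts (CPM) stood for 16.9 to 20.5 counts. Fold changes, standard errors (SE) and adjusted p values are from edgeR's quasi-likelihood test over all genes, and calls are those with an adjusted p under 0.05. n is 3 libraries per group throughout, and p values measure only the spread between these pools. Krt12, the keratin that defines the corneal epithelium, was at 15900 to 32870 CPM in Control. In the 9 injured libraries Krt12 was at 3.29 to 186 CPM, and all 6 corneal epithelial markers were called lower in Vehicle. All 7 markers of conjunctiva and goblet cells, all 6 tested markers of neutrophils and all 8 markers of macrophages were called higher. Transcripts of skeletal muscle, lens and retina varied widely between libraries of the same group. Circadian genes divided the libraries into 4 with low Dbp (Control replicate 3, Vehicle replicates 1 and 2, UCS replicate 1) and 8 with high Dbp. In bulk samples such as these, fewer cells of a type and less RNA per cell cannot be told apart.

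After injury the calls among the 37 genes lay in glycogen turnover, the pentose phosphate pathway, lactate transport and the pyruvate step. Between Vehicle and Control, 4 of the 37 genes were higher (Slc16a3, Ppp1r3b, Pdk4 and Gys1), 5 were lower (Ppp1r3c, Tkt, Gyg, Pygl and Pdk1) and 28 were not called. Over all genes tested, 9.58% were called higher and 6.92% lower; the 1116 lower calls became 626 without Vehicle replicate 2 and 641 with skeletal muscle markers as a covariate. The median log2 fold change of the 37 genes was 0.15, beside −0.0013 over all genes tested. None of the 15 glycolysis enzymes was called, while 5 of the 10 glycogen genes were. The libraries of the 2 groups did not overlap for 11 genes that were higher and 6 that were lower in Vehicle, beside 15.2% and 15.4% of all genes.

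**Figure D1:**
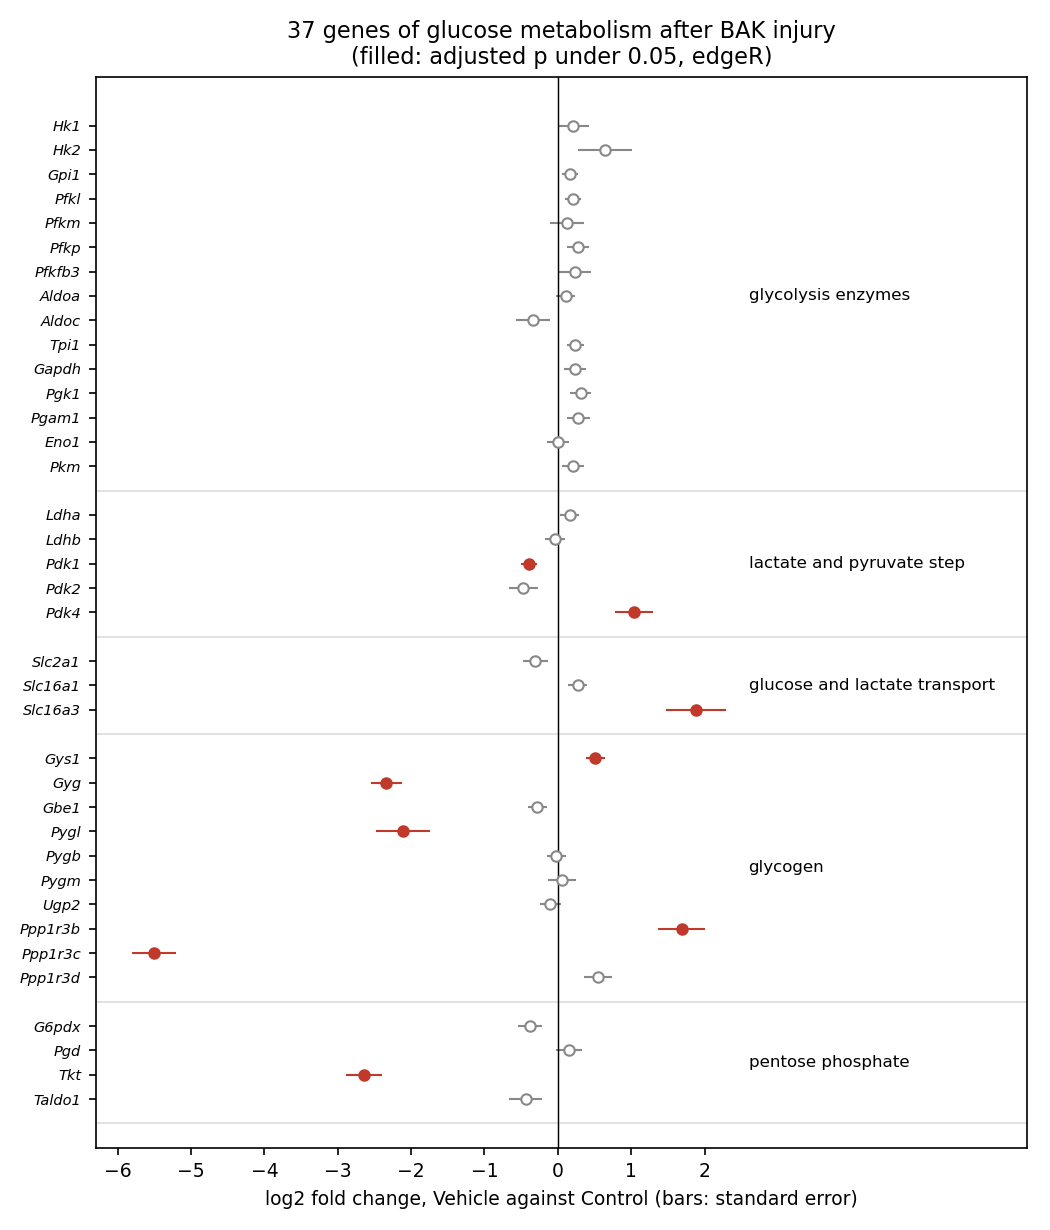
Log2 fold change of each of the 37 genes between Vehicle and Control (x axis, with standard errors as bars), grouped by role from top to bottom; filled points passed the test. The glycolysis enzymes lie between −0.34 and 0.64 with no filled point, whereas Ppp1r3c lies at −5.50, Tkt at −2.64, Gyg at −2.34 and Pygl at −2.11.

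The promoters of 5 members are shown because hypoxia-inducible factor, the best known regulator of glycolytic genes, binds a short core that can be read in them. They are 3 of the genes that fell most, Slc16a3 as a gene that rose, and Pgk1 as a glycolysis enzyme that was not called. Each run is the 250 bases before an annotated transcript start, 5′ to 3′ on the gene's strand, from RefSeq on build GRCm38.p6. For Slc16a3 that start is an internal one, since the run lies inside the gene, which begins at 120948484. The runs of the other genes end where the gene begins. Capitals mark the core ACGTG or GCGTG on either strand, which also lies inside the E-box CACGTG.
Ppp1r3c promoter, chr19:36736605-36736854, minus strand: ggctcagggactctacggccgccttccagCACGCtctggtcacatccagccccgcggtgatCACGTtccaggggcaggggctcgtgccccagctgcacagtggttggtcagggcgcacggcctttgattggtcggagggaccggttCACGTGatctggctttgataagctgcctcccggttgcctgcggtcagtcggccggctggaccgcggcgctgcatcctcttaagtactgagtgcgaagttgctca
Pygl promoter, chr12:70227684-70227933, minus strand: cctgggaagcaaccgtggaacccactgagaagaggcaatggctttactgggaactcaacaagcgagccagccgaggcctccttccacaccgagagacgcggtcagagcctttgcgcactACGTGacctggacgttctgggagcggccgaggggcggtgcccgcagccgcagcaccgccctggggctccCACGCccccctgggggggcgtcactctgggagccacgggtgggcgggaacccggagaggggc
Tkt promoter, chr14:30548881-30549130, plus strand: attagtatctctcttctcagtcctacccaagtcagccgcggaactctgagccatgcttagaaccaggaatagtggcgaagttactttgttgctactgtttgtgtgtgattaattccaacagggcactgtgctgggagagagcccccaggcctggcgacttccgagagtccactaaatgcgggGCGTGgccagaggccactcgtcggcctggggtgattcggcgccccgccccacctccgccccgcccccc
Slc16a3 promoter, chr11:120948817-120949066, plus strand: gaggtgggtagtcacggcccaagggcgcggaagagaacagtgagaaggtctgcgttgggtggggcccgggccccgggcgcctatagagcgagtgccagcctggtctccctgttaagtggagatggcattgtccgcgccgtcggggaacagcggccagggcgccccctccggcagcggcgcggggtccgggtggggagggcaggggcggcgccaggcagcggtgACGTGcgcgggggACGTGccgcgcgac
Pgk1 promoter, chrX:106186850-106187099, plus strand: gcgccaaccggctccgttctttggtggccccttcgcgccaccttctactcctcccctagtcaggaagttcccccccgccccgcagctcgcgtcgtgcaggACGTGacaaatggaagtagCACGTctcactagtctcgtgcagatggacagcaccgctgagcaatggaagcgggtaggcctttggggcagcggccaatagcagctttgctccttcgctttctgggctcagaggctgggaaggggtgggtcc
The core was found in 40 of 52 RefSeq promoters of the 36 members that have one, or 76.9%, beside 38.6% of all 32851 promoters and 51.6% of the 16168 promoters of tested genes. Counted by gene, it was present for 32 of the 36 members and for 13 of the 15 glycolysis enzymes, none of which was called. It was also in each of the 4 promoters above of called genes, which were chosen for display and are not all the called genes. The Ppp1r3c promoter also held the E-box CACGTG at position −104 from the start. That motif was in 7 of the 52 members' promoters, or 13.5%, beside 6.02% of all and 7.61% of those of tested genes. Base composition was not matched in these shares. A match is a run of letters and not a measured binding site.

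Transport across the cell membrane was represented by 3 members, of which 1 rose. Slc2a1 encodes GLUT1, the main glucose transporter of the corneal epithelium. Its level was 494, 536 and 461 CPM in Control, 444, 385 and 375 CPM in Vehicle, 463, 426 and 331 CPM in UCS, and 512, 342 and 412 CPM in UCPRP. The Vehicle libraries lay below those of Control without overlap, but the difference was not called (−0.31 on the log2 scale, SE 0.17, edgeR adjusted p = 0.273). Slc16a1, the widespread lactate transporter MCT1, had 51.8 ± 3.97 CPM in Control, and in Vehicle 62.6 ± 9.07 CPM (SD, n = 3), also without a call.

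Slc16a3 encodes MCT4, the lactate exporter of strongly glycolytic cells (chromosome 11, 120948484 to 120959000, plus strand, GRCm38.p6). It was at 14.5, 7.89 and 10.8 CPM in Control and at 46.8, 57.6 and 18.2 CPM in Vehicle. UCS libraries had 8.87, 18.8 and 21.1 CPM and UCPRP libraries 18.4, 20.9 and 22.5 CPM. Vehicle replicates 1 and 2 stood far above all other libraries, and Vehicle replicate 3 lay within the range of the treated groups. Slc16a3 rose 3.69-fold in Vehicle (1.88 on the log2 scale, SE 0.41, edgeR adjusted p = 0.00919), a call kept in each of 15 alternative analyses, the 6 that left out 1 library among them. Against Control, the log2 fold changes of 0.55 in UCS and 0.89 in UCPRP were not called (adjusted p = 0.494 and 0.214 by edgeR).

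Neutrophil transcripts, like Slc16a3, were lowest in replicate 3 among the Vehicle libraries. The summed CPM of 7 neutrophil markers, none of them at 0 in every library, was 32.2 to 121 in Control. It was 1397, 1270 and 762 in Vehicle replicates 1, 2 and 3, 376 to 959 in UCS and 293 to 435 in UCPRP. S100a8, their calprotectin subunit, dropped more steeply than the sum. It was at 48.8 and 55.2 CPM in Vehicle replicates 1 and 2 and at 6.33 CPM in replicate 3. The summed CPM of 8 macrophage markers was 811, 681 and 599.5 in Vehicle replicates 1, 2 and 3. The 2 high Vehicle libraries were also those with low Dbp. Among low-Dbp libraries, Slc16a3 was at 10.8 CPM in Control replicate 3 and at 46.8 and 57.6 CPM in Vehicle; among high-Dbp libraries it was at 14.5 and 7.89 CPM in Control and 18.2 CPM in Vehicle replicate 3. With 1 Control library in the low class and 1 Vehicle library in the high class, no test was made within either. The part of neutrophils or macrophages in the Slc16a3 result was not tested.

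The differences of the 15 glycolysis enzymes were small and did not pass the test. By edgeR 0 were called in Vehicle against Control, and 2 (Tpi1 and Pgk1) had an unadjusted p under 0.05. Of the 15, 14 had a positive log2 fold change, with a median of 0.21 and a range from −0.34 to 0.64; over all genes tested 8043 were positive and 8079 negative. The libraries did not overlap for Gapdh, Gpi1, Hk2, Pgk1, Pkm and Tpi1, all higher in Vehicle, beside 15.2% of all genes. In UCS against Control the median was 0.06 (range −0.13 to 0.24), and no enzyme was called or separated the libraries. Of the 16124 genes tested, 2398 lay higher and 2261 lower in UCS without overlap. In UCPRP against Control the median was again 0.21, and 7 enzymes were higher without overlap, beside 14.5% of all genes.

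Gapdh, the enzyme that generates NADH in glycolysis, had the highest CPM of the glycolysis enzymes. It was at 2228, 2003 and 2214 CPM in Control, 2367, 2854 and 2412 CPM in Vehicle, 2108, 2383 and 2672 CPM in UCS, and 2603, 2709 and 2666 CPM in UCPRP. All Vehicle and UCPRP libraries were above all Control libraries, and the UCS libraries overlapped with them. The log2 fold change in Vehicle was 0.24 (SE 0.15, edgeR adjusted p = 0.328). Gapdh is often used as a reference transcript, and its counts were fractional in all 12 libraries.

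The isoforms of a step differed in how they varied, and the genes of this paragraph were chosen after their values were seen. Hexokinase 2 (Hk2), the inducible enzyme that traps glucose in the cell, was at 75.6, 34.9 and 75.9 CPM in Control and 77.0, 125 and 88.2 CPM in Vehicle. Its log2 fold change of 0.64 had an SE of 0.37 and an adjusted p of 0.298 by edgeR. The low Control library, replicate 2, was also lowest in Control for retinal transcripts (3113 summed CPM of 10 markers, beside 7227 and 8378). The retinal sums of the Vehicle libraries were 2338, 10500 and 7947 CPM. Pfkm, the muscle phosphofructokinase, reached 110 CPM in Vehicle replicate 3 and was at 50.2 to 79.4 CPM in the other 11 libraries. Pygm, the muscle glycogen phosphorylase, was likewise highest there, at 101 CPM beside 57.0 to 84.1 CPM. That library had the highest summed CPM of 14 skeletal muscle markers (2106, beside 16.1 to 965 elsewhere). Aldoc, the aldolase of nervous tissue, was highest in UCPRP replicate 3 at 437 CPM, beside 197 to 317 CPM elsewhere, and that library had the highest sums of 9 lens markers, 26390 CPM, and of the 10 retinal markers, 13410 CPM. The part of muscle, lens and retina in these values was not tested.

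**Figure D2:**
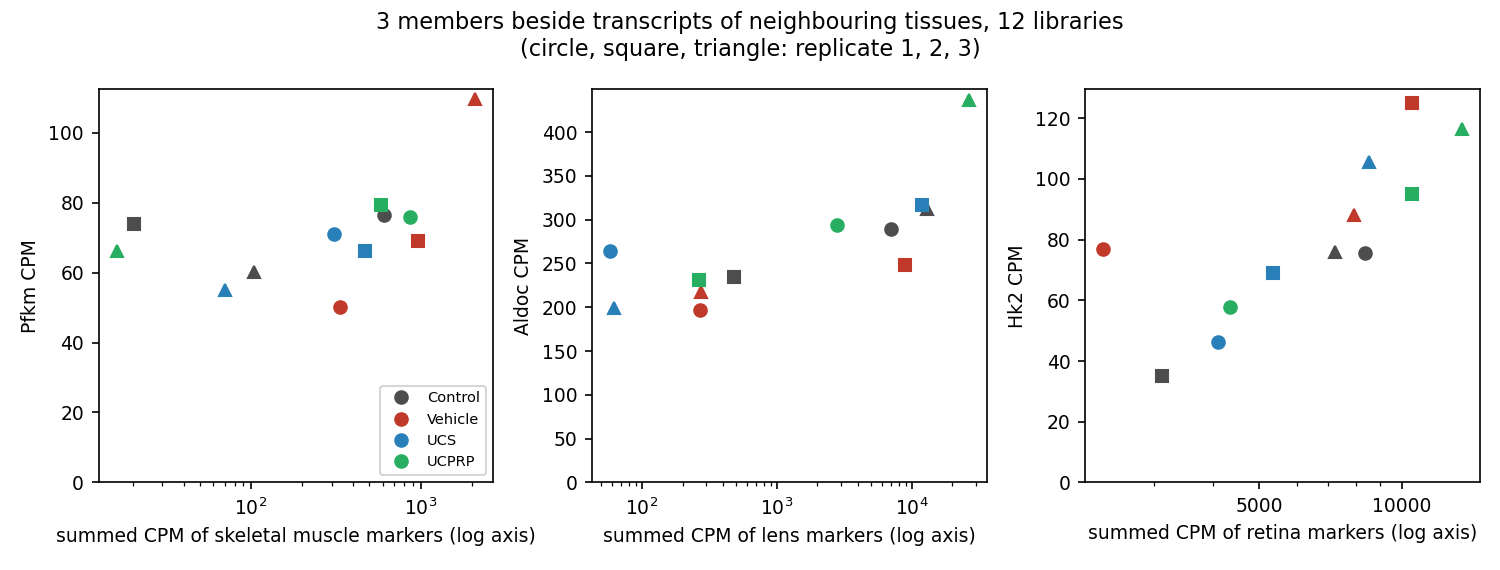
CPM of Pfkm, Aldoc and Hk2 (y axes, from 0) in each of the 12 libraries against the summed CPM of skeletal muscle, lens and retina markers (x axes, log scale); colours are groups and symbols replicates. Vehicle replicate 3 stands apart for Pfkm at 110 CPM and UCPRP replicate 3 for Aldoc at 437 CPM, and Hk2 runs from 34.9 CPM in Control replicate 2 to 125 CPM in Vehicle replicate 2.

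At the pyruvate branch point, 2 kinases that switch off pyruvate dehydrogenase were called in opposite directions. Pdk4, the kinase induced by fasting and fatty acids, was at 2.37, 1.84 and 2.23 CPM in Control and at 3.82, 5.13 and 4.34 CPM in Vehicle. UCS libraries had 3.67, 3.00 and 2.55 CPM and UCPRP libraries 3.63, 2.52 and 2.0 CPM. Every Vehicle library was above every other library of the study. Pdk4 rose 2.06-fold in Vehicle (1.04 on the log2 scale, SE 0.26, edgeR adjusted p = 0.0166), at a level of only 264 counts over the 3 libraries. With the skeletal muscle markers as a covariate its log2 fold change was 0.74 and the call was lost (edgeR adjusted p = 0.0922); it was also lost without Control replicate 2 or Vehicle replicate 2 (adjusted p = 0.0619 and 0.0633 by edgeR).

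Pdk1, a kinase of the same family and a known target of hypoxia-inducible factor, was at 93.7, 107 and 88.7 CPM in Control and 79.2, 66.8 and 75.3 CPM in Vehicle. UCS libraries had 84.1, 81.9 and 77.9 CPM and UCPRP libraries 88.9, 78.9 and 71.9 CPM. Vehicle and UCS lay below Control without overlap, and UCPRP replicate 1 overlapped with Control. Pdk1 fell by 0.39 on the log2 scale in Vehicle (SE 0.11, edgeR adjusted p = 0.0293), a call that 7 of 15 alternative analyses did not keep. The losses included leaving out Control replicate 1 or 2, or Vehicle replicate 2 or 3 (adjusted p from 0.0551 to 0.123 by edgeR). In the 7 analyses without the call the log2 fold change was −0.31 to −0.41. Pdk2, another kinase, had a log2 fold change of −0.47 without a call (SE 0.20, edgeR adjusted p = 0.146).

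Ldha, the lactate dehydrogenase subunit of glycolytic tissue, was at 513, 605 and 574 CPM in Control, 654, 687 and 550 CPM in Vehicle, 549, 564 and 634 CPM in UCS, and 590, 650 and 594 CPM in UCPRP. The groups overlapped, and no comparison of Ldha was called. Ldhb, the subunit of oxidative tissue, had a log2 fold change of −0.04 in Vehicle against Control (SE 0.14) and was not called either.

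Of the 10 glycogen genes 3 fell and 2 rose in Vehicle, and those that fell included both the primer and an enzyme of breakdown. Ppp1r3c encodes PTG, a subunit that brings protein phosphatase 1 to glycogen and so activates glycogen synthase (chromosome 19, 36731731 to 36736604, minus strand, GRCm38.p6). It was at 236, 306 and 262 CPM in Control and at 3.15, 8.40 and 6.23 CPM in Vehicle. The UCS libraries had 3.72, 5.41 and 4.90 CPM and the UCPRP libraries 6.08, 6.26 and 6.89 CPM. All 9 injured libraries lay far below all 3 Control libraries. Ppp1r3c was 45.2-fold lower in Vehicle (−5.50 on the log2 scale, SE 0.30, adjusted p = 9.69e-06), 57.3-fold lower in UCS and 41.8-fold lower in UCPRP by edgeR, and 355 counts remained over the 3 Vehicle libraries beside 14826 in Control.

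Gyg encodes glycogenin, the protein primer on which a glycogen particle is built (chromosome 3, 20122083 to 20155117, minus strand, GRCm38.p6). It was at 306, 477 and 279 CPM in Control, 70.6, 60.5 and 78.2 CPM in Vehicle, 80.8, 73.3 and 62.8 CPM in UCS, and 86.5, 74.1 and 66.9 CPM in UCPRP. The injured groups lay close together and below every Control library. Gyg fell by 2.34 on the log2 scale in Vehicle (SE 0.21, adjusted p = 9.7e-05), by 2.29 in UCS and by 2.22 in UCPRP by edgeR.

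Pygl encodes the liver form of glycogen phosphorylase, which releases glucose units from glycogen (chromosome 12, 70190815 to 70227683, minus strand, GRCm38.p6). It was at 156, 178 and 142 CPM in Control, 40.8, 41.6 and 28.0 CPM in Vehicle, 35.3, 60.1 and 27.4 CPM in UCS, and 44.6, 24.7 and 73.2 CPM in UCPRP. All injured libraries were below Control, with a wider spread among them than for Gyg. Pygl fell by 2.11 on the log2 scale in Vehicle (SE 0.37, adjusted p = 0.00273), by 1.95 in UCS and by 1.74 in UCPRP by edgeR. The highest injured values, in UCPRP replicate 3 and UCS replicate 2, came with the highest lens marker sums of the injured libraries (26390 and 11880 CPM), and the part of lens in them was not tested.

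**Figure D3:**
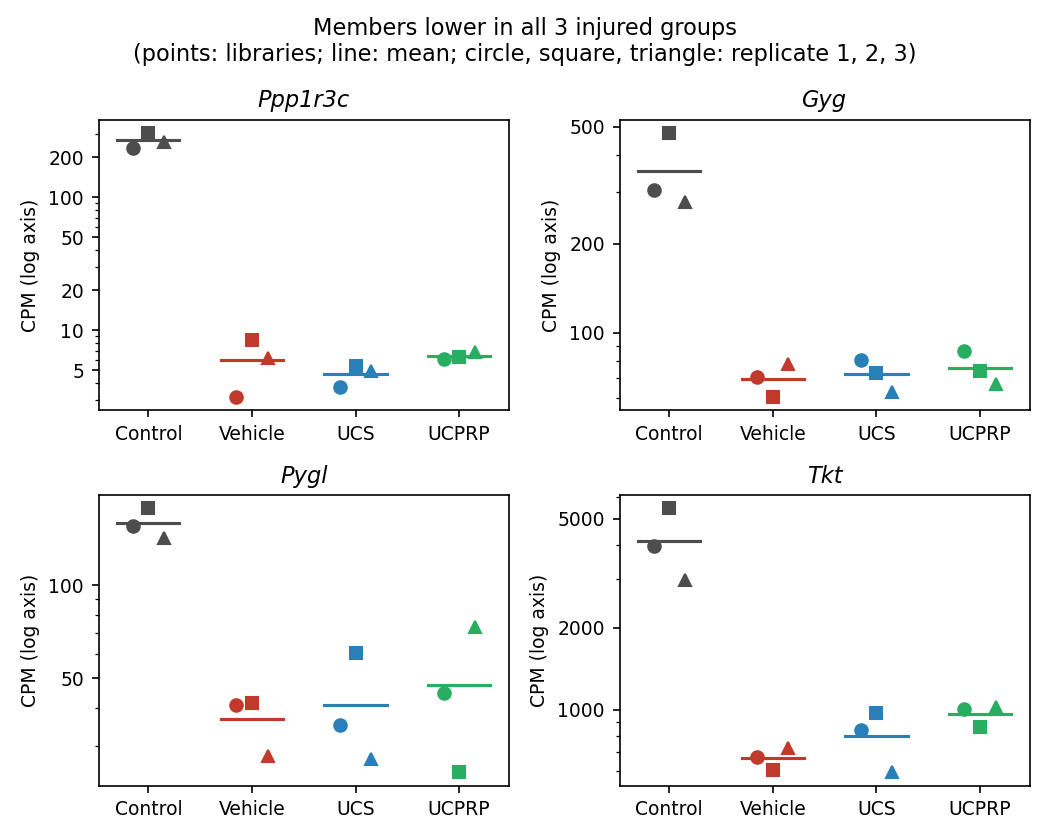
CPM (log axis) of Ppp1r3c, Gyg, Pygl and Tkt in the 12 libraries by group; points are libraries, their shape is the replicate and lines are group means. For each gene the 3 Control libraries lie above all 9 injured ones, with Ppp1r3c at 236 to 306 CPM beside 3.15 to 8.40 CPM.

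Against these falls, another targeting subunit and the synthase itself were higher. Ppp1r3b encodes GL, the glycogen-targeting subunit best known from liver (chromosome 8, 35375694 to 35388139, plus strand, GRCm38.p6). It was at 4.43, 4.03 and 6.58 CPM in Control, 21.0, 19.0 and 8.73 CPM in Vehicle, 12.2, 7.44 and 9.75 CPM in UCS, and 7.42, 6.11 and 6.84 CPM in UCPRP. Vehicle replicates 1 and 2, the libraries high in Slc16a3 and S100a8, were the highest of the study, and all Vehicle and UCS libraries were above Control. Ppp1r3b rose 3.23-fold in Vehicle (1.69 on the log2 scale, SE 0.32, edgeR adjusted p = 0.00396), a call kept in all 15 alternative analyses. It was at 6.58 CPM in the low-Dbp Control library and 21.0 and 19.0 CPM in the low-Dbp Vehicle libraries, and at 4.43 and 4.03 CPM beside 8.73 CPM in the high-Dbp ones. Per length of transcript, Ppp1r3c was at 98.5 ± 12.9 CPM per kilobase in Control and Ppp1r3b at 1.14 ± 0.312. In Vehicle they were at 2.17 ± 0.969 and 3.7 ± 1.5 CPM per kilobase, respectively (SD, n = 3).

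Gys1, the glycogen synthase of tissues other than liver, had 24.2 ± 3.15 CPM in Control, and in Vehicle 34.4 ± 4.23 CPM (SD, n = 3). It rose 1.42-fold (0.51 on the log2 scale, SE 0.13, edgeR adjusted p = 0.0193). Of 15 alternative analyses 5 did not keep that call, among them the skeletal muscle covariate (adjusted p = 0.119) and leaving out Control replicate 3 or Vehicle replicate 2 or 3 (adjusted p from 0.0625 to 0.0684 by edgeR). Gys1 overlaps Ruvbl2 on the opposite strand, and the sources used here do not say whether counting used strand. Gbe1, Pygb, Pygm, Ugp2 and Ppp1r3d were not called, with log2 fold changes between −0.28 and 0.55 in Vehicle. The largest of these was that of Ppp1r3d, another targeting subunit (edgeR adjusted p = 0.0662). Ppp1r3d was called higher by DESeq2, with the retina covariate and without Control replicate 2 (adjusted p = 0.0408, 0.0204 and 0.027).

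**Figure D4:**
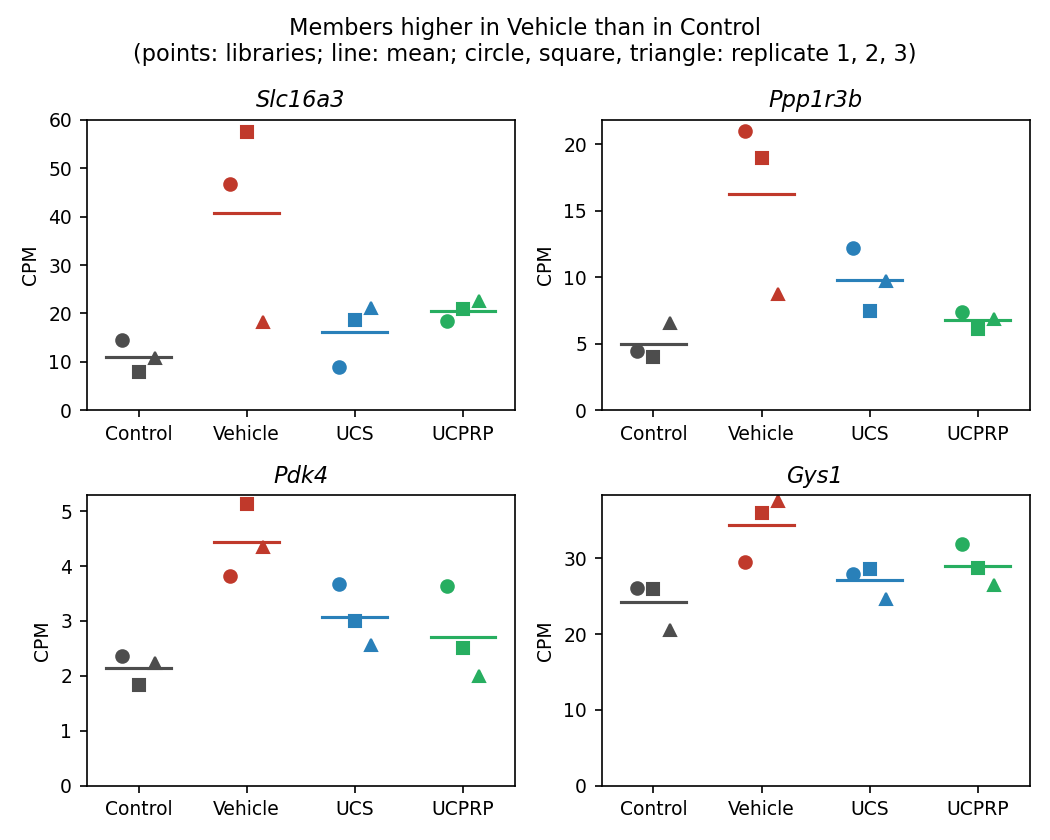
CPM (linear axes from 0) of Slc16a3, Ppp1r3b, Pdk4 and Gys1, the members called higher in Vehicle, in the 12 libraries by group; points are libraries, their shape is the replicate and lines are group means. Vehicle replicates 1 and 2 stand above all other libraries for Slc16a3 (46.8 and 57.6 CPM) and Ppp1r3b (21.0 and 19.0 CPM), while for Pdk4 all 3 Vehicle libraries do.

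In the pentose phosphate pathway, Tkt fell and the other 3 enzymes were not called. Tkt encodes transketolase, which shuttles carbon between the pathway and glycolysis (chromosome 14, 30549131 to 30574724, plus strand, GRCm38.p6). It was at 3977, 5460 and 2994 CPM in Control, 673, 600.4 and 726 CPM in Vehicle, 846, 973 and 590.5 CPM in UCS, and 1005, 862 and 1024 CPM in UCPRP. Every injured library was below every Control library, and the UCPRP libraries were all above the Vehicle ones. Tkt fell by 2.64 on the log2 scale in Vehicle (SE 0.25, adjusted p = 0.000105), by 2.37 in UCS and by 2.10 in UCPRP by edgeR. G6pdx, the NADPH-producing entry enzyme, had a log2 fold change of −0.38 in Vehicle (adjusted p = 0.14), and Taldo1, transaldolase, one of −0.44 (edgeR adjusted p = 0.227). With the retina covariate G6pdx was called lower (edgeR adjusted p = 0.0481). Pgd, which also produces NADPH, was at 0.15 (edgeR adjusted p = 0.659).

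Corneal epithelial transcripts fell in the same libraries as Ppp1r3c, Gyg, Pygl and Tkt. The summed CPM of the 6 corneal epithelial markers was 36790 to 77990 in Control, 6991 to 9059 in Vehicle, 7562 to 9387 in UCS and 7692 to 10950 in UCPRP. The markers fell unequally, so the sum does not give the loss of each. Their log2 fold changes in Vehicle against Control ran from −11.74 to −0.64. The median was −7.1 in Vehicle, −6.4 in UCS and −5.52 in UCPRP. Within Control, replicate 2 had the highest marker sum and also the highest level of all 4 genes. The part of the loss of corneal epithelium in these 4 results was not tested.

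Per length of the longest coding transcript, Tkt stood lower among the 37 genes in the injured groups than in Control. In Control, Gapdh was at 1513 ± 88.6 CPM per kilobase (SD, n = 3) and Tkt at 1286 ± 385, which do not differ beyond their spread, followed by Aldoa at 673 ± 47.7. In Vehicle the order was Gapdh, Aldoa, Pkm, Eno1, Ldha and Tpi1, from 1792 ± 190 to 220 ± 8.23 CPM per kilobase, and Tkt followed at rank 7 with 207 ± 19.6. Tkt and its neighbours Tpi1 and Gpi1 (192 ± 12.2) did not differ there beyond their spread. The abundant enzymes of the trunk, namely Gapdh, Aldoa, Pkm, Eno1 and Ldha, held the top 5 ranks in all 3 injured groups.

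The balance between isoforms, as the log2 ratio of CPM per kilobase in each library and with no test, turned over between Pygl and Pygb, forms of glycogen phosphorylase. The ratio of Pygl to Pygb, the brain form, was 1.05, 1.01 and 0.92 in Control, so that Pygl was the more abundant. It was −0.99, −0.83 and −1.51 in Vehicle, −1.42, −0.39 and −1.38 in UCS, and −1.10, −1.59 and −0.10 in UCPRP, so that Pygb was the more abundant in every injured library. The level of Pygb was 104 ± 9.69 CPM in Control, and in Vehicle 102 ± 4.98 CPM. The ratio of Slc16a3 to Slc16a1 was −2.24 ± 0.41 in Control, −0.74 ± 0.73 in Vehicle, −1.69 ± 0.66 in UCS and −1.38 ± 0.08 in UCPRP. Ldha to Ldhb was 1.48 ± 0.04 in Control and 1.69 ± 0.34 in Vehicle, with overlap. Hk2 to Hk1 was −1.80 ± 0.49 and −1.30 ± 0.16, and the highest Control and the lowest Vehicle library met at −1.47.

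**Figure D5:**
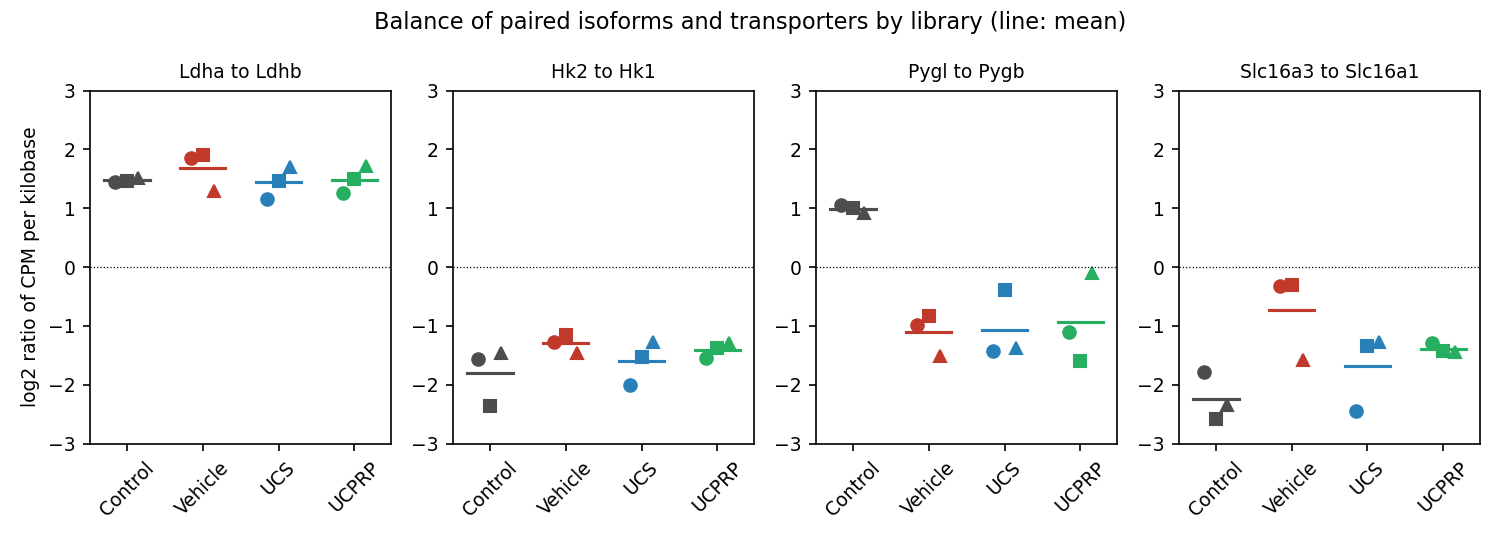
Log2 ratio of CPM per kilobase of paired genes (y axis, the same range in each panel) in the 12 libraries by group; lines are means and the dotted line marks equal levels. Pygl to Pygb is 0.92 to 1.05 in Control and below 0 in all 9 injured libraries, and Slc16a3 to Slc16a1 is highest in Vehicle replicates 1 and 2.

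Against Control the treated groups had 4 of the 5 lower calls of Vehicle and none of the higher ones; the same Control libraries serve all 3 comparisons. In UCS 0 members were called higher and 4 lower, beside 6.4% and 4.47% of all genes, and in UCPRP 0 higher and 4 lower, beside 5.3% and 5.07%. The 4 were Ppp1r3c, Gyg, Pygl and Tkt in both cases, and each kept its call in all 15 alternative analyses of each comparison. Among the members with no edgeR call, DESeq2 called Ppp1r3b higher in UCS (7.77% of all genes) and Gpi1 and Tpi1 higher in UCPRP (6.33% of all genes). In each of these 2 comparisons 9 of 37 members had an unadjusted p under 0.05 by edgeR, beside 3748 and 3815 of all 16124 genes, so the members' share was near that of all genes.

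Directly against Vehicle, 0 members were called in UCS and 0 in UCPRP by edgeR, as were 0.0% of all genes in each. An unadjusted p under 0.05 was found for 4 members in UCS and 5 in UCPRP, beside 782 and 1572 genes of all tested, and limma-voom called none in either. Over all genes, leaving out Vehicle replicate 3 moved edgeR's counts from 0 to 2 higher and 35 lower in UCS, with no member among them, and to 19 higher and 176 lower in UCPRP. DESeq2 called no member in UCS, beside 2 higher and 12 lower of all genes. In UCPRP it called Ppp1r3b lower (adjusted p = 0.0294 by DESeq2), where it called 0.844% of all genes lower. By edgeR the log2 fold change of Ppp1r3b in UCPRP was −1.26 (SE 0.31, adjusted p = 0.331). Without Vehicle replicate 3 it was −1.56 and was called (edgeR adjusted p = 0.0212), as were 1.08% of all genes lower in that fit. The Vehicle libraries left in that fit were low in Dbp and all UCPRP libraries high, so treatment and circadian class cannot be told apart there. Over the 15 alternative analyses the log2 fold change of Ppp1r3b ran from −1.56 to −0.67, and 13 did not call it. Slc16a3 was at −1.33 in UCS and −0.99 in UCPRP (adjusted p = 0.894 and 0.472 by edgeR), and Pdk4 at −0.53 and −0.71. Tkt was at 0.27 in UCS and 0.53 in UCPRP (adjusted p = 1.0 and 0.505 by edgeR).

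Some of these genes separated the libraries without a call. In UCS, Gys1, Pdk4, Slc16a1 and Ugp2 lay below Vehicle without overlap and none lay above it, beside 4.43% and 5.02% of all genes. In UCPRP, Pdk4, Ppp1r3b and Ugp2 lay below and Tkt above, beside 7.13% and 6.68% of all genes. The SE of a member's log2 fold change was 0.16 at the median in each of these comparisons (range 0.11 to 0.41 in UCS).

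Between UCPRP and UCS no member was called by edgeR, limma-voom or DESeq2, and edgeR called 0.0% of all genes. 0 members had an unadjusted p under 0.05, and 393 of all genes did. The log2 fold changes of the 37 genes ran from −0.53 for Ppp1r3b to 0.45 for Ppp1r3c, with a median of 0.11 beside 0.0172 over all genes.

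Genes of the same pathways outside the 37 are read against the 9.58% of all genes called higher and 6.92% called lower in Vehicle against Control. Of 28 tested genes of glycolysis, gluconeogenesis and pyruvate entry, 5 were higher and 1 lower. Mpc2, a subunit of the mitochondrial pyruvate carrier, fell by 0.99 on the log2 scale, and Pdp1, the phosphatase that reactivates pyruvate dehydrogenase, rose by 0.86 (adjusted p = 0.00997 and 0.000614 by edgeR). Adpgk, an ADP-dependent glucokinase, rose by 0.45. Mpc2 and Pdp1 were called in the same direction in UCS and UCPRP against Control. Of 14 other sugar and lactate transporters 2 were higher, one of them Slc2a9, a urate and hexose transporter, at 1.44. One of 18 other glycogen genes (Pgm2, a phosphoglucomutase, 0.71), 1 of 8 other pentose phosphate genes (H6pd, the enzyme of the endoplasmic reticulum, 0.51) and 1 of 17 enzymes of the tricarboxylic acid cycle (Idh3a, 0.25) were higher and none lower. The calls of Adpgk, H6pd and Idh3a were lost in 9, 8 and 11 of 15 alternative analyses. That of Mpc2 was lost with only the 2 groups in the fit and with the muscle covariate (adjusted p = 0.0601 and 0.072 by edgeR). Those of Pdp1, Slc2a9 and Pgm2 were kept in all 15.

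Hypoxia response genes outside the pathway did not move one way. Of 15 tested, 2 were called higher and 3 lower in Vehicle. Pfkfb4 is among these 15 and also among the 28 genes of glycolysis, gluconeogenesis and pyruvate entry above. Egln3, the prolyl hydroxylase that marks hypoxia-inducible factor for destruction and is itself induced by it, was at 512, 793 and 508 CPM in Control and at 162, 127 and 129 CPM in Vehicle. It fell by 2.12 on the log2 scale in Vehicle, 2.13 in UCS and 2.16 in UCPRP (adjusted p from 0.000142 to 0.000212 by edgeR), with no overlap between Control and injured libraries. Ndrg1 fell by 0.62 and Bnip3, a mitophagy receptor, rose by 0.81 in Vehicle, and those calls were lost in 7 and 5 of 15 alternative analyses.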

How the data were processed

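RNA was measured in 12 pooled libraries of mouse cornea. Per the labels' protocols, extraction used a Qiagen RNeasy kit and library construction a TruSeq Stranded kit for total RNA. HISAT and GRCm38 appear in the submitters' processing notes. The sources used here do not give the counting tool, annotation or use of strand. The deposited values were estimated counts per gene and library, of which 64.9% were whole numbers. For the 37 genes, counts were fractional in all 12 libraries for 11, among them the called members Ppp1r3b, Pdk4, Gys1 and Pdk1. For Slc16a3 they were fractional in 10 libraries. They were fractional in no library for 18 genes, among them Ppp1r3c, Gyg, Pygl and Tkt. Of the 37 genes, 7 overlap a coding gene on the opposite strand.

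Counts were rounded to whole numbers, filtered with filterByExpr (minimum count 10), scaled by TMM (factors 0.825 to 1.067) and tested over all 12 libraries with 1 term per group by edgeR 4.0.16 quasi-likelihood in R 4.3.3, with Benjamini-Hochberg adjustment over 16124 genes. Scripts were tested on simulated data. CPM values use TMM-scaled totals; coordinates are RefSeq GRCm38.p6 and lengths are GENCODE's. Each SE was derived from edgeR's F statistic (size of the log2 fold change over the root of F). Correlations within groups ran from 0.96 to 0.986.

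Alternatives were DESeq2 1.42.0, limma-voom (limma 3.58.1), RLE factors, no filter, only the 2 groups compared, a replicate block, circadian, muscle or retina covariates, and leaving out each library. The members and lists were chosen with earlier results of these data known. Per role, up to 4 called members by size of change and the member with the highest CPM are given in every library; of related lists, up to 3 called genes averaging 5 CPM or more.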

Additional observations from a re-analysis of the deposited data

How the results depend on the processing

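For the called members and the other genes followed through the alternatives, no log2 fold change reversed direction. The differences in isoform ratios between Vehicle and Control kept theirs too. Medians and ranks of the members were not followed in this way. The 5 lower calls in Vehicle against Control stayed at 4 or 5 and the 4 lower calls in UCS and in UCPRP against Control stayed at 4 with each library left out. The 4 higher calls in Vehicle became 2 (Ppp1r3b and Slc16a3) with the muscle covariate and ranged from 2 to 4 with a library left out, 2 of them without Vehicle replicate 2. For UCS against Control, the 0 higher calls became 1 with DESeq2 and 1 with the circadian covariate, Ppp1r3b in both. For UCPRP against Control they became 2 with DESeq2, 1 with the retina covariate (Ppp1r3d) and 0 to 1 with a library left out (Tpi1 without Control replicate 2). For UCPRP against Vehicle the 0 lower calls became 1 with DESeq2 and 0 to 1 with a library left out. The cause was not tested in any of these. Over all genes the counts of calls with only the 2 groups of Vehicle and Control in the fit were 1173 higher and 604 lower, beside 1545 and 1116, with fewer libraries to estimate the spread.

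With a replicate block, 4 members were called higher and 5 lower in Vehicle against Control, as without it, and no other member count changed. The replicate numbers share only a number: correlations of deviations between same-numbered libraries ran from −0.581 to 0.494, and 7 of 18 were over 0.1. The difference in the log2 ratio of Pygl to Pygb between Vehicle and Control was −2.11, and −2.25 to −1.91 with a library left out. Depth limits Pdk4 most, with 120 counts over the Control libraries.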

Other observations

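The called genes of the related lists that had not been described were chosen after their values were seen. Hk3, the hexokinase of myeloid cells, was at 1.39, 1.96 and 1.55 CPM in Control and 10.2, 10.7 and 3.52 CPM in Vehicle, and rose by 2.32 on the log2 scale (edgeR adjusted p = 0.00644). Its high libraries were Vehicle replicates 1 and 2, as for Slc16a3 and Ppp1r3b. Slc2a6, a lysosomal hexose transporter, was at 5.01, 5.57 and 1.69 CPM in Vehicle and at 1.01 to 1.75 CPM in Control (edgeR adjusted p = 0.0383), with Vehicle replicate 3 again low. Pdk3, the kinase related to Pdk1 and Pdk4, rose by 0.44, and Pfkfb1, which sets the level of the glycolytic activator fructose 2,6-bisphosphate, rose by 0.75. Of the hypoxia response genes, Ddit4, an inhibitor of mTORC1, rose by 0.61 and Kdm3a, a histone demethylase, fell by 0.47 (adjusted p = 0.0267 and 0.00361 by edgeR).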
